A study of Rattus norvegicus with 8 samples.

Results

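The genes described are 10 MHC and antigen presentation genes of the rat, measured in fetal pancreatic islets: the class II chains RT1-Ba, RT1-Bb, RT1-Da and RT1-Db1, the peptide exchange chains RT1-DMa and RT1-DMb, the invariant chain Cd74, the class II transactivator Ciita, the class I light chain B2m and the peptide transporter subunit Tap1. They were taken by name from a list that was chosen with earlier results of these data known. All 10 had exactly 1 probe set that the platform annotation assigns to a single gene, so 10 of the 14506 genes tested are described. Islets came from Sprague-Dawley litters at embryonic day 19, 1 day after the dams had either a sham operation or surgery causing intrauterine growth restriction (IUGR) on embryonic day 18. Both groups therefore carried the effects of an operation, and they differ by the kind of surgery. All fetuses of a litter were pooled, and each of the 8 Affymetrix arrays stands for 1 litter, with 4 sham and 4 IUGR litters. The labels name no sort of the islets, so the preparations may hold leukocytes, vessels and stroma.

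The deposited values are on the log2 scale, where a step of 1 is a doubling of signal. They carry no detection call, and precision is limited by how many arrays there are. The islet hormones were strongly measured on every array, with Ins1 between 13.15 and 14.01 and Gcg between 13.33 and 13.94. Arrays differed in how widely their gene values spread: sham replicates 2, 3 and 4 had interquartile ranges of 3.06 to 3.23, and the other 5 arrays of 3.53 to 3.63. Sham replicate 1 also had the highest mean of the macrophage list (10.07), and sham replicate 4 the highest mean of the endocrine list (11.87).

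MHC molecules display peptides to T cells. Class II molecules are pairs of an alpha and a beta chain that are made mainly by dendritic cells, macrophages and B cells. The invariant chain Cd74 occupies their groove during transport, and the DM pair exchanges its remnant for peptide. Class I molecules pair a heavy chain with beta-2 microglobulin (B2m) in nearly all nucleated cells, and are loaded with peptides carried into the endoplasmic reticulum by the Tap transporter. Transcription of class II genes depends on Ciita, a coactivator that binds no DNA itself and is recruited by factors of the RFX and NF-Y families at the X and Y boxes of class II promoters. In the rat the MHC is named RT1.

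Promoter windows were read for 8 of the 10 genes from RefSeq, on assembly GRCr8, from 250 bases before to 50 bases after the gene start. In 6 of them, an X-box-like match (GNNACNG) was followed on the gene's strand by a Y box (GATTGG). The stretches around both are shown because they are what the class II chains, RT1-DMa and B2m have in common in sequence, 5′ to 3′ on the strand of the gene, with the X-box-like match and the Y box in capitals.

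RT1-Da, chr20:4515318-4515385, plus strand: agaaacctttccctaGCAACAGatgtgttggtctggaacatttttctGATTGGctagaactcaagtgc
RT1-Ba, chr20:4576966-4577033, plus strand: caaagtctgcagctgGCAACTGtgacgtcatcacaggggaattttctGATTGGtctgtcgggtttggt
RT1-Db1, chr20:4560223-4560289, minus strand: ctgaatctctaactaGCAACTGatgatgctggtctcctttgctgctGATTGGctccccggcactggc
RT1-Bb, chr20:4604160-4604226, minus strand: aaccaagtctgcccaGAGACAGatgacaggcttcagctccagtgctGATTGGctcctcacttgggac
RT1-DMa, chr20:4712380-4712447, minus strand: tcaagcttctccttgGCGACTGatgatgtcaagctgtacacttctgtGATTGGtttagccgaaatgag
B2m, chr3:129549218-129549285, plus strand: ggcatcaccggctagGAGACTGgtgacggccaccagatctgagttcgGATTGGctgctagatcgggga

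The first bases of the X-box-like match and the Y box were 32 bases apart in RT1-Da, RT1-Ba, RT1-DMa and B2m, and 31 bases apart in RT1-Db1 and RT1-Bb. In B2m another X-box-like match directly follows the one in capitals. The Y box began between 44 bases before the gene start, in RT1-Ba, and 81 bases before it, in RT1-Db1. Of 33469 promoter windows of the same length, 14.8% held GATTGG on either strand, 88.1% held the short GNNACNG on either strand, and 1.14% held the pair at a spacing of 25 to 40 bases. Letters and spacing were set after reading these windows, so the share describes the pattern and tests nothing. The Cd74 and Tap1 windows held no GATTGG. A further pair of motifs was searched on both strands. A run of TTTC, NN and TTTC, like an interferon-stimulated response element, was in the windows of B2m and Tap1 and in 3.92% of all. TTCNNNGAA, like a gamma-activated site, was in none of the 8 and in 8.87% of all. These are matches of letters, and no binding was measured. RT1-DMb and Ciita were not matched.

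In IUGR litters, the class II genes had lower means than in sham litters, but no difference passed the test. The fitted difference was below 0 for 9 of the 10 genes, as it was for 44.9% of all genes tested, and the median of the 10 was -0.48 against 0.04 for all genes. With limma and Benjamini-Hochberg adjustment over all genes, 0 of the 10 passed the threshold of 0.05, where 0.248% of all genes did (0.0138% lower and 0.234% higher in IUGR). Of the 10, RT1-DMb and Ciita had an unadjusted limma p under 0.05, as 26.1% of all genes did. With 1 array per pooled litter, fewer cells of a type and less RNA per cell cannot be told apart.

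**Figure D1:**
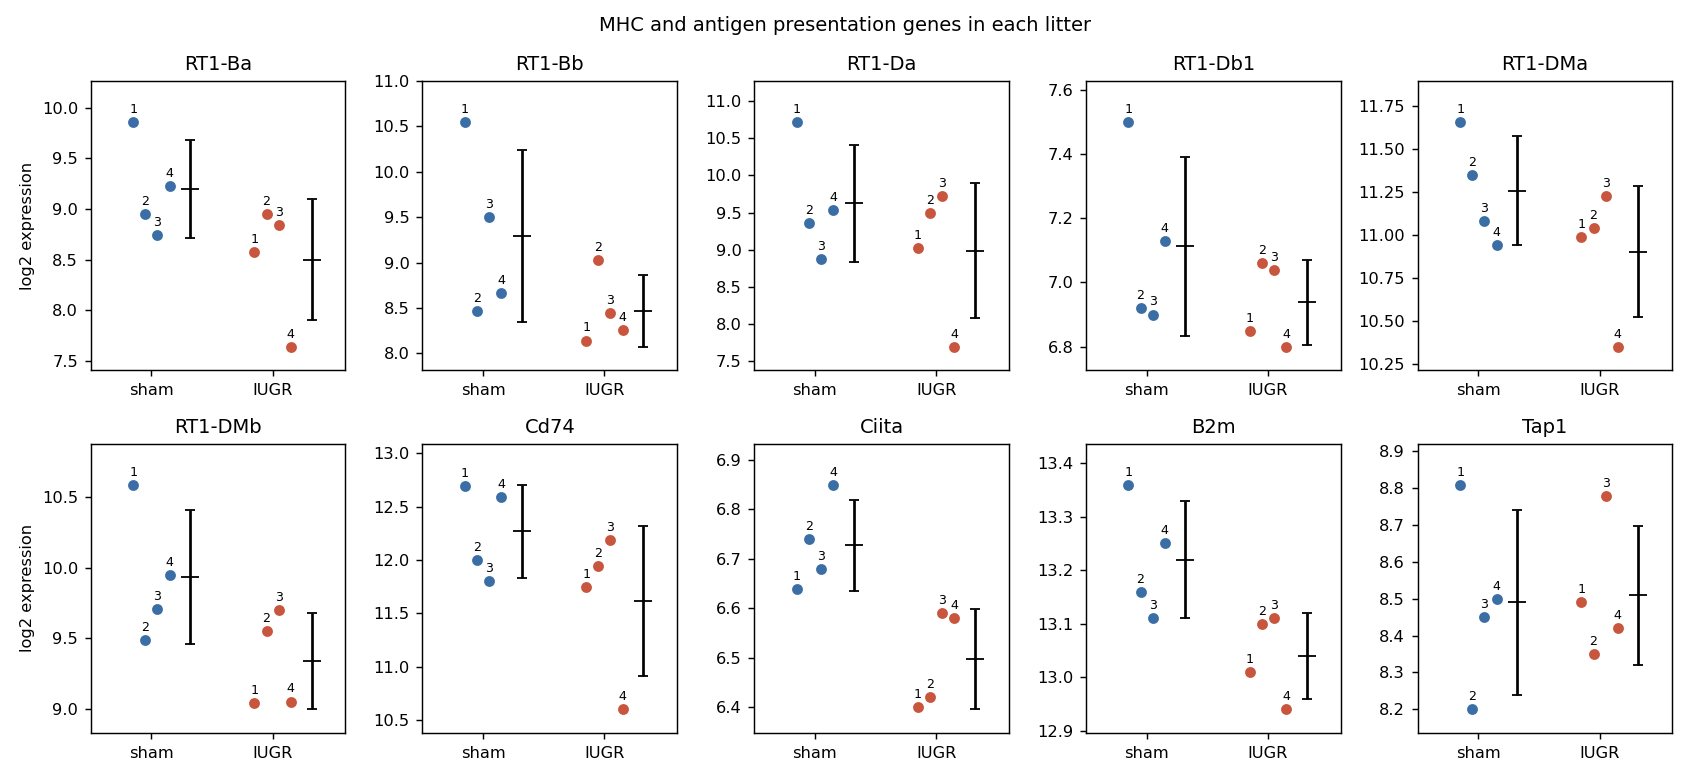
Log2 expression of the 10 genes in each litter, with sham litters in blue and IUGR litters in red and the replicate number above each point. The bar beside each group is the mean with its SD (n = 4); each panel has its own axis. Sham replicate 1 is highest for 9 genes, and IUGR replicate 4 lowest for 6.

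The class II alpha chains ranged more widely within each group than the group means differed. RT1-Da, the alpha chain of the D molecule, was at 10.72, 9.36, 8.88 and 9.54 in sham replicates 1 to 4 and at 9.03, 9.49, 9.73 and 7.70 in IUGR replicates 1 to 4. The ends of its range are sham replicate 1 and IUGR replicate 4, and the other 6 litters are intermixed. The means were 9.63 ± 0.78 and 8.99 ± 0.91 (SD, n = 4 each), and the difference was -0.64 ± 0.52 (SE; limma adjusted p = 0.440). RT1-Ba, the alpha chain of the B molecule, was at 9.86, 8.95, 8.74 and 9.23 in sham litters and at 8.57, 8.95, 8.84 and 7.64 in IUGR litters. The same 2 litters lie at its ends. Its difference was -0.69 ± 0.33 (SE; limma adjusted p = 0.226).

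The beta chains differed from each other in spread. RT1-Bb, which pairs with RT1-Ba, was at 10.55, 8.46, 9.50 and 8.66 in sham litters and at 8.14, 9.03, 8.44 and 8.26 in IUGR litters. Sham replicates 1 and 3 stood above all IUGR litters, while sham replicates 2 and 4 lay among them. Its difference, -0.83 ± 0.44 (SE), did not pass (limma adjusted p = 0.264). Without sham replicate 1 it was -0.41. RT1-Bb also ordered the litters unlike its partner, since its lowest value was in IUGR replicate 1 and IUGR replicate 4 stood close to the other IUGR litters. RT1-Db1, the beta chain of the D molecule, ranged from 6.80 to 7.50 over all 8 litters, with a difference of -0.18 ± 0.15 (SE). It was among the 30% of genes with the lowest mean. RT1 genes include close copies, and a probe set may take signal from more than one of them.

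Cd74, the invariant chain, had its 2 highest values in sham replicates 1 and 4 and its lowest in IUGR replicate 4. It was at 12.69, 12, 11.80 and 12.59 in sham litters and at 11.75, 11.94, 12.19 and 10.60 in IUGR litters. IUGR replicate 4 stood below every other litter, and IUGR replicate 3 was above sham replicates 2 and 3. The difference was -0.65 ± 0.36 (SE, n = 4 per group), with a 95% interval from -1.47 to 0.18 (limma adjusted p = 0.279, exact permutation p = 0.171). Without IUGR replicate 4 it was -0.31.

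The DM chains, which edit the peptides of class II molecules, had smaller spreads than the alpha chains. RT1-DMb was at 10.59, 9.49, 9.71 and 9.95 in sham litters and at 9.04, 9.55, 9.70 and 9.05 in IUGR litters. IUGR replicates 1 and 4 were below all sham litters, and IUGR replicates 2 and 3 within their range. Its difference was -0.60 ± 0.26 (SE; limma adjusted p = 0.188, exact permutation p = 0.114). RT1-DMa ranged from 10.94 to 11.66 in sham and from 10.35 to 11.23 in IUGR litters, with a difference of -0.36 ± 0.22 (SE).

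Ciita and B2m had small differences with no overlap between the groups. Ciita was at 6.64, 6.74, 6.68 and 6.85 in sham litters and at 6.40, 6.42, 6.59 and 6.58 in IUGR litters. All IUGR litters were lower, with a gap of 0.055 between the nearest litters. Its difference was -0.23 ± 0.09 (SE; limma adjusted p = 0.153), and the exact permutation p of 0.0286 is the smallest that 4 against 4 litters can give. Ciita was, like RT1-Db1, among the 30% of genes with the lowest mean. After quantile normalization its difference was -0.09 and the groups overlapped, and after cyclic loess it was -0.14 with overlap. After median centring it was -0.46 without overlap (limma adjusted p = 0.0931), and B2m was -0.41.

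B2m was at 13.36, 13.16, 13.11 and 13.25 in sham litters and at 13.01, 13.10, 13.11 and 12.94 in IUGR litters. The groups met at sham replicate 3 and IUGR replicate 3, which differed by 0.005. Its difference was -0.18 ± 0.09 (SE; limma adjusted p = 0.219, exact permutation p = 0.0286), and the groups overlapped after quantile normalization and cyclic loess. Of all genes, 5.45% were lower in IUGR with no overlap, against these 2 of 10. After either of those scalings the genes without overlap were RT1-Ba and RT1-DMb instead, again 2 of 10, where 7.50% of all genes were lower without overlap after quantile normalization and 7.01% after cyclic loess. After median centring there were 6, where 12.5% of all genes were.

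Tap1 was the member with a mean difference close to 0. It was at 8.81, 8.20, 8.45 and 8.50 in sham litters and at 8.49, 8.35, 8.78 and 8.42 in IUGR litters, so that the groups were mixed throughout. The difference was 0.02 ± 0.15 (SE), with a 95% interval from -0.32 to 0.36 (limma adjusted p = 0.937). It was -0.20 when arrays were quantile normalized, -0.15 with cyclic loess and -0.21 with median centring, and under each of these scalings all 10 genes had differences below 0. The share of all genes below 0 was 50.6%, 49.8% and 71.9% under the same scalings. Median centring moved the median of all genes from 0.04 to -0.19, about as far as it moved Tap1.

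Most of these differences were smaller when a pair of litters, 1 in each group, was left out. Sham replicate 1 was the highest litter for 9 of the 10 genes and IUGR replicate 4 the lowest for 6. Without both litters, 3 remaining in each group, the median of the 10 was -0.14 and 0 passed, where 12.4% of all genes did. RT1-Da was then 0.16, Cd74 -0.17, RT1-Ba -0.18 and RT1-Bb -0.34, while Ciita was -0.29. This choice of litters followed from their values and is a description.

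**Figure D2:**
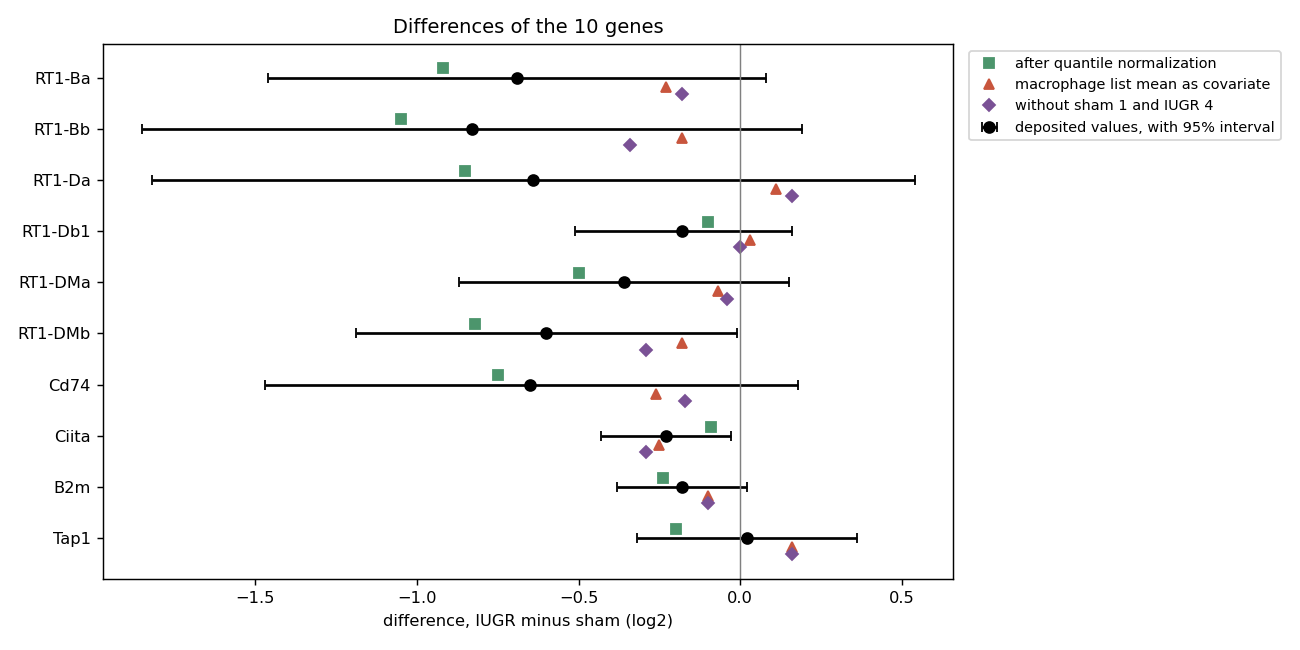
Difference between IUGR and sham litters (log2, horizontal axis) for each gene; black points are the fit to the deposited values with 95% intervals, and coloured symbols are 3 other fits. Differences of the class II genes lie closer to 0 with the macrophage list mean as a covariate and without sham replicate 1 and IUGR replicate 4, and farther from 0 after quantile normalization except for RT1-Db1.

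Across litters the class II genes varied together. Among RT1-Ba, RT1-Bb, RT1-Da, RT1-Db1, RT1-DMa, RT1-DMb and Cd74, the 21 pairs had a median Pearson's r of 0.84 over the 8 litters, from 0.51 for RT1-Bb with Cd74 to 0.96 for RT1-Ba with RT1-Da and with Cd74. B2m, a class I gene, followed them closely, with a median r of 0.89 to the 7. Tap1 followed them less, at a median of 0.45, and Ciita least, at 0.24. These values describe 8 arrays that share depth of signal and tissue makeup across all genes, and they have no test.

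In 5 of the 8 litters, the macrophage list mean lay within 9.36 to 9.52, and both class II genes and single macrophage markers varied there. Of the markers, Cd163 ranged from 7.77 to 9.49 over these litters, while C1qb lay within 10.85 to 10.96. Cd74 ranged from 11.80 to 12.59 over these litters (10.60 to 12.69 over all 8) and RT1-Da from 8.88 to 9.73 (7.70 to 10.72). RT1-Bb ranged from 8.44 to 9.50 (8.14 to 10.55) and RT1-DMa from 10.94 to 11.35 (10.35 to 11.66). RT1-DMb lay within 9.49 to 9.95 (9.04 to 10.59), RT1-Ba within 8.74 to 9.23 (7.64 to 9.86) and RT1-Db1 within 6.90 to 7.13 (6.80 to 7.50). The macrophage list held 33 measured markers, none of them an MHC gene, and its mean was 10.07, 9.44, 9.50 and 9.36 in sham replicates 1 to 4 and 8.74, 9.52, 9.51 and 8.90 in IUGR replicates 1 to 4. IUGR replicates 1 and 4 were below the rest, and sham replicate 1 above it. Of the 33, 29 had a difference below 0, with a median of -0.48, and 0 passed (limma). Lyz2, with the smallest p of the list, was at -0.92, with r = 0.92 to the list mean. The 4 markers above 0 included Fcgr2b, at 0.59 with r = -0.45, and Lgals3, at 0.43 with r = -0.09. The median of the 10 MHC genes was also -0.48. For the 7 class II genes alone it was -0.64, beside -0.63 for mesenchyme, -0.61 for B cell and -0.61 for pan-leukocyte markers. Medians were -0.21 for dendritic cell, -0.22 for T, natural killer and innate lymphoid cell and -0.19 for endothelial markers.

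Correlation with the macrophage list mean was high for the class II genes but passed no adjusted test. RT1-DMb had the highest value, with r = 0.92 (exact permutation p = 0.00506, adjusted p = 0.172) and Spearman's rho of 0.67 (exact permutation p = 0.0831, adjusted p = 0.609). RT1-Bb, RT1-Db1 and B2m had r = 0.84 each, RT1-Ba 0.82, RT1-Da 0.80, RT1-DMa 0.78 and Cd74 0.70. Tap1 was at 0.42 and Ciita at 0.36. Of the 10, 7 had an unadjusted p under 0.05 for r and 1 for rho, by exact permutation over 40320 pairings. The adjustment was made over 14473 genes, of which 0 passed for r or for rho (0.0%), and 1559 and 1283 had an unadjusted p under 0.05. No p of this test can be below 1 in 40320, so a single gene at that p could not pass over this many genes. The lowest adjusted p of the exact permutation test was 0.116 for r and 0.179 for rho.

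Over all genes outside the macrophage list the median r was 0.02, and 4.87% of genes had an r of 0.8 or more. The share of genes with a higher r than the member was 1.26% for RT1-DMb, 3.63% for RT1-Bb, 4.43% for RT1-Ba, 4.92% for RT1-Da and 7.81% for Cd74. For Ciita it was 20.4%. Without the 2 litters farthest from the median of the macrophage mean, sham replicate 1 and IUGR replicate 1, r was 0.75 for RT1-DMb, 0.88 for RT1-Da, 0.81 for Cd74 and 0.56 for RT1-Bb. The Ciita value was then -0.00. Deviations from the group means gave 0.88 for RT1-DMb, 0.57 for Cd74 and -0.20 for Ciita. Among the 5 arrays of wider signal range the class II genes had a median r of 0.86, from 0.78 to 0.96. Among the 3 arrays of narrower range, all sham, r was below 0 for 8 of the 10 genes, at -0.98 for Cd74 and -0.60 for RT1-DMb, and above 0 for RT1-Bb (0.70) and RT1-DMa (0.43). Their macrophage means lay within 9.36 to 9.50, and 3 arrays are too few to set against the others.

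**Figure D3:**
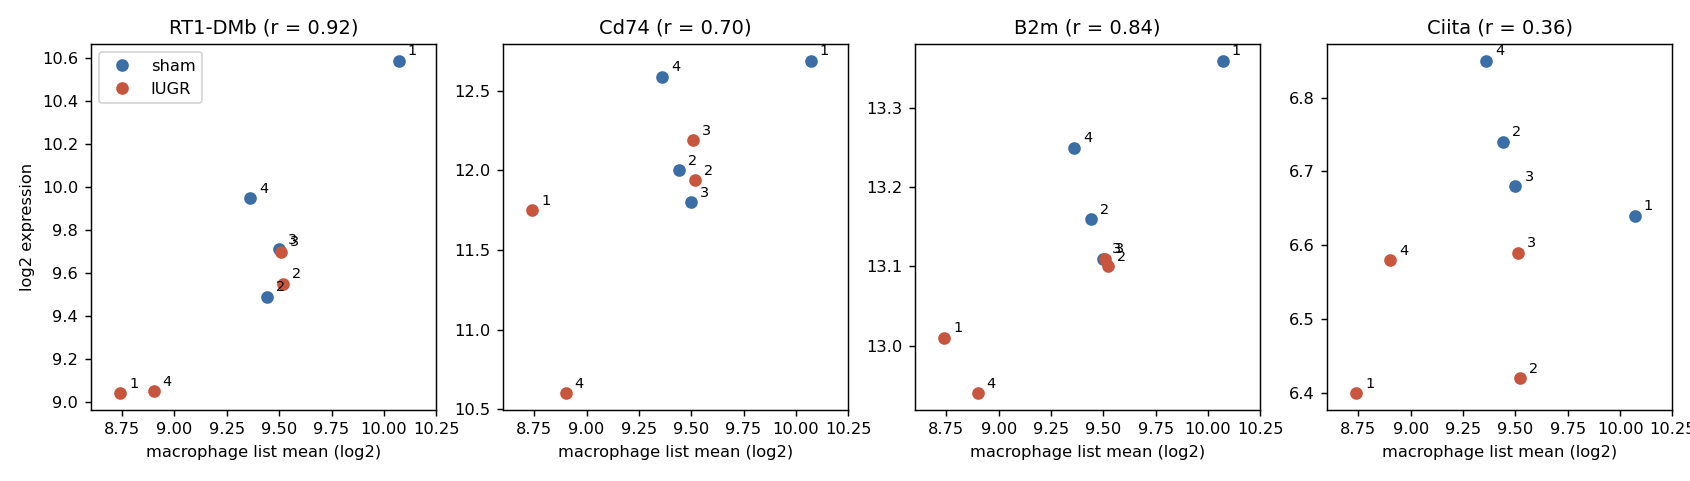
Log2 expression of RT1-DMb, Cd74, B2m and Ciita (vertical axes, each with its own range) against the mean of the 33 macrophage markers (log2) in each litter, numbered by replicate. IUGR replicates 1 and 4 sit at the low end and sham replicate 1 at the high end of the macrophage mean, while sham replicate 4 has a Cd74 value of 12.59 at a macrophage mean of 9.36.

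With the macrophage list mean as a covariate the median difference of the 10 genes was -0.14. RT1-Ba was then -0.23 ± 0.30, RT1-Bb -0.18 ± 0.37, RT1-DMb -0.18 ± 0.17 and Cd74 -0.26 ± 0.38 (SE). RT1-Da (0.11) and RT1-Db1 (0.03) changed sign. Ciita, at -0.25 ± 0.10 (SE; limma adjusted p = 0.157), was as large as without the covariate. Under this fit 0 of the 10 passed, and 0 of all genes (lowest limma adjusted p = 0.0786). The list mean differs between the groups and takes 1 degree of freedom, and the part of macrophages in the differences was not tested beyond these values.

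The means of other leukocyte lists correlated with the macrophage mean and with the class II genes. They had correlations with the macrophage mean of 0.94 for B cell, 0.95 for dendritic cell, 0.98 for T, natural killer and innate lymphoid cell and 0.99 for pan-leukocyte markers. The class II genes had a median r of 0.86 with the B cell list, 0.86 with the dendritic cell list and 0.82 with the macrophage list. It was 0.84 with the T, natural killer and innate lymphoid cell list and 0.81 with the pan-leukocyte list. RT1-DMb and B2m were at 0.98 and 0.97 with the B cell list. All 10 measured B cell markers had a difference below 0 with a median of -0.61, and the list mean was 8.06 to 8.87 in sham and 7.45 to 8.16 in IUGR litters. All 12 pan-leukocyte markers were below 0 too, with a median of -0.61, and 0 of either list passed (limma; 2 of each had an unadjusted p under 0.05). Cd79b, a part of the B cell receptor, was at 8.08 to 10.31 in IUGR litters, and Ms4a1, which marks mature B cells, lay between 5.82 and 6.16 in all litters. The dendritic cell list mean was 7.61 to 7.88 in sham and 7.26 to 7.63 in IUGR litters. Which of these cells the class II signal came from was not tested.

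Cd74 had its highest correlations with non-leukocyte lists. Its r was 0.90 with the endothelial and 0.88 with the mesenchyme list mean, against 0.70 with the macrophage list, 0.86 with the dendritic cell list and 0.83 with the B cell list. RT1-Ba was at 0.80 and 0.82 with the endothelial and mesenchyme means, RT1-Da at 0.75 and 0.69, and RT1-Bb, the lowest, at 0.37 and 0.40. With the dendritic cell list RT1-Ba was at 0.91, RT1-Da at 0.88 and RT1-Bb at 0.77. The median r of the class II genes was 0.68 with the endothelial and 0.62 with the mesenchyme list. Differences between these r were not tested. The endothelial mean was 10.47 to 11.21 in sham and 10.14 to 10.77 in IUGR litters, and the mesenchyme mean 11.90 to 12.43 and 10.83 to 11.84. Both were highest in sham replicate 4 and lowest in IUGR replicate 4. All 17 measured endothelial and all 15 measured mesenchyme markers had a difference below 0, with medians of -0.19 and -0.63. Of either list 0 passed (limma; 1 and 7 had an unadjusted p under 0.05). The acinar list ran opposite to Cd74 (r = -0.85) and B2m (r = -0.87). Its mean was 9.29 to 10.64 in sham and 10.72 to 11.63 in IUGR litters. The liver list holds transcripts of liver plasma proteins, and which cells of the preparations they came from was not tested. Its mean was 9.31 to 11.71 in sham and 11.53 to 12.90 in IUGR litters, with r of -0.74 to Ciita and -0.54 to Cd74. All 17 measured liver and all 14 measured acinar markers had a difference above 0, with medians of 1.81 and 1.03, and 0 of either passed (limma; 15 and 8 had an unadjusted p under 0.05). The part of tissue makeup in the lower means of the MHC genes was not tested.

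**Figure D4:**
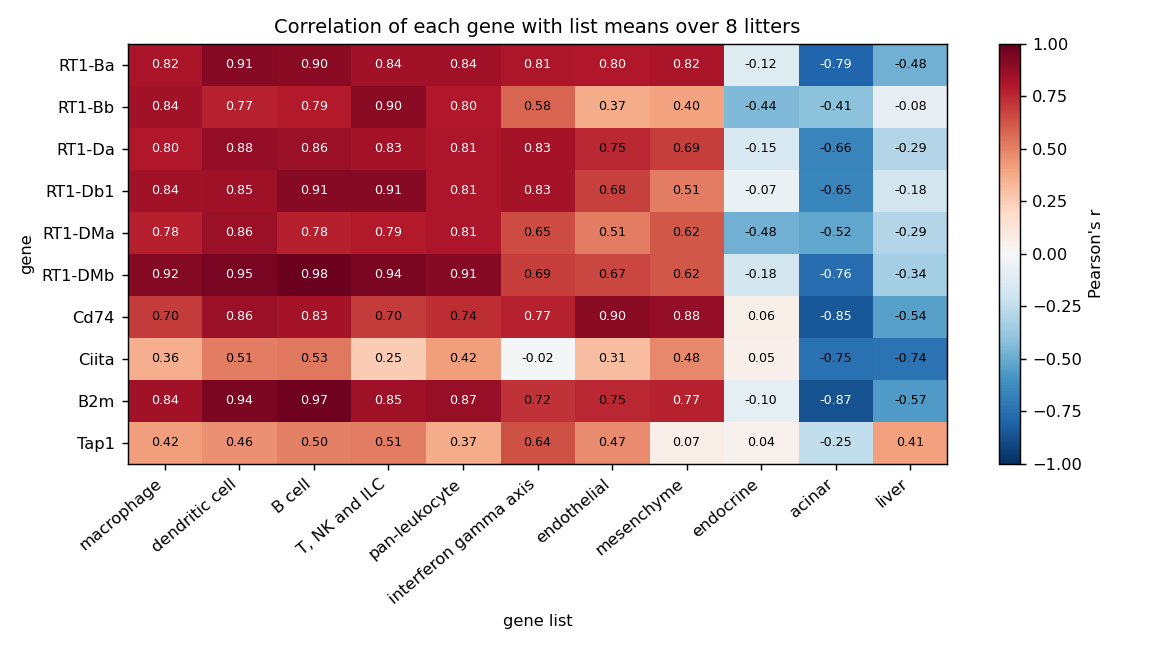
Pearson's r over 8 litters between each of the 10 genes (rows) and the mean of each gene list (columns); red is positive and blue negative. Leukocyte lists have r between 0.70 and 0.98 with the class II genes and B2m, Cd74 has its highest r with the endothelial list, and Ciita and Tap1 are paler throughout the leukocyte lists.

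Among all other genes, those closest to Cd74 over the 8 litters were Tsc22d1 (r = 0.978), Fbxl7 (0.977), Ptprs (0.976), Fxyd5 (0.973), Sh2d3c (0.972) and Zfp36l1 (0.970). None of the 6 passed between the groups (limma adjusted p from 0.184 to 0.428). Those closest to B2m were Sipa1 (r = 0.981), the B cell gene Fcrla (0.979), Sv2a (0.976), Tgfb1 (0.975), Sp100 (0.973) and Csf3r, the receptor of a neutrophil growth factor (0.966). These had limma adjusted p from 0.121 to 0.195. Both sets were picked as the highest r of all other genes over only 8 litters, and these r have no test.

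Other genes of class II loading and regulation had no common direction. Of 25 listed genes 22 were measured, 11 with a difference above and 11 below 0, with a median of 0.01, and 0 passed (limma; 3 had an unadjusted p under 0.05). Ctsl, a lysosomal protease that cuts the invariant chain, was at 11.41 in sham and 11.96 in IUGR litters, a difference of 0.56 ± 0.17 (SE; limma adjusted p = 0.129). Its groups did not overlap, as for 15.5% of all genes, and its direction opposed that of Cd74. Ctss, the protease that does this in antigen presenting cells, was at -0.46 ± 0.27 (SE), with r = 0.97 to the macrophage mean. Nfyb, a subunit of NF-Y, was at 0.53 ± 0.19 (SE; limma adjusted p = 0.145). Marchf8, a ubiquitin ligase of membrane proteins, was at 0.25 and RT1-DOa, which modulates DM, at -0.22. Ctsl and Nfyb passed without sham replicate 1, at 0.64 and 0.67 (limma adjusted p of 0.0478 and 0.0360), in a fit where 18.9% of all genes passed.

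For class I, 24 heavy chain and class I-like genes were measured from single-gene probe sets, and RT1-A genes were not among them. Of these, 21 had a difference below 0, with a median of -0.17, and 0 passed (limma). That direction depended on scaling, with 14 of 24 below 0 and a median of -0.08 after quantile normalization. RT1-CE5 had a difference of 0.36 ± 0.08 (SE; limma adjusted p = 0.0895), at 7.39 to 7.54 in sham and 7.74 to 7.94 in IUGR litters. It passed without sham replicate 1 (limma adjusted p = 0.0316), as 18.9% of all genes did. RT1-M6-1, with means of 6.43 in sham and 5.96 in IUGR litters, was among the 30% of genes with the lowest mean. Its difference was -0.46 ± 0.15 (SE; limma adjusted p = 0.132), and -0.58 in the same fit without sham replicate 1 (limma adjusted p = 0.0228) and -0.59 without IUGR replicate 4 as well (limma adjusted p = 0.0471), where 12.4% of all genes passed. Of 15 genes of class I loading, the immunoproteasome and related molecules, 8 were below 0 with a median of -0.01. Tap2, the partner of Tap1, was at -0.03 ± 0.13 (SE), and Psmb9, an immunoproteasome subunit, at -0.34 ± 0.47 (SE). Cd1d1, which presents lipids, was at 0.47 ± 0.17 (SE; limma adjusted p = 0.147). Its groups did not overlap, as for 15.5% of all genes in either direction.

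**Figure D5:**
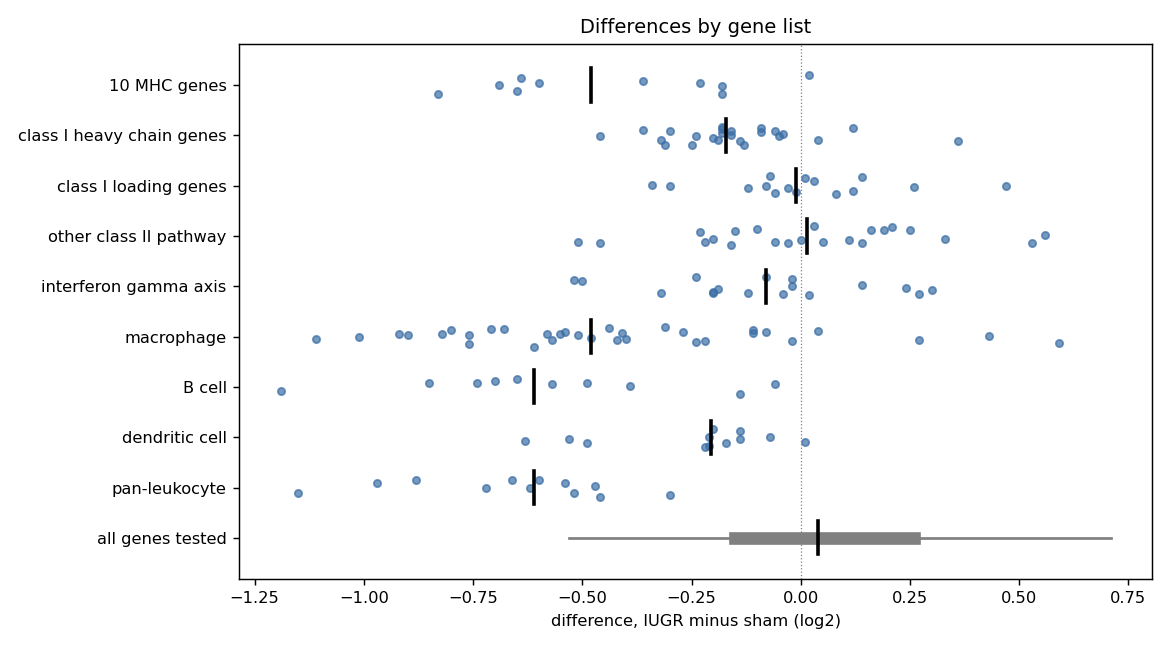
Differences between IUGR and sham litters (log2, horizontal axis) of single genes, by list; the black bar is the median of the list. For all genes tested the thick grey bar spans the interquartile range and the thin line the 5th to the 95th percentile. The 10 MHC genes have a median of -0.48, as do the macrophage markers, while class I loading genes and other class II pathway genes lie around 0. B cell and pan-leukocyte markers have medians of -0.61, and dendritic cell markers have a median of -0.21.

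Interferon gamma is the classical inducer of Ciita and of class I loading genes. Of 18 genes of its axis 17 were measured, 12 with a difference below 0, with a median of -0.08, and 0 passed (limma; 4 had an unadjusted p under 0.05). Ifng itself lay between 5.84 and 6.18 in all litters, low beside array medians of 8.48 to 8.85. Cxcl10, an interferon-induced chemokine, was at -0.52 ± 0.16 (SE; limma adjusted p = 0.128) and the GTPase gene Gbp2 at -0.50 ± 0.20 (SE; limma adjusted p = 0.167). Socs1, an inhibitor of the pathway, was at 0.27 ± 0.09 (SE), and 0.03 after quantile normalization. The class II genes had a median r of 0.77 with the mean of this list over the 8 litters. Ciita itself was at -0.02 with this mean, Tap1 at 0.64 and B2m at 0.72. These correlations have no test.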

How the data were processed

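RNA of 8 pooled fetal islet litters was hybridised to 1 array each. The deposited values are log2 expression. RMA is the method that the submitters' processing notes name, and its version was not given in the sources used here. Of 29214 probe sets, the platform annotation named 1 gene for 15310, several for 323 and none for 13581. Symbols were updated through gene identifiers (15279 matched), and the brightest probe set of each gene was kept (527 genes had several), which left 14506 genes.

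Groups were compared with limma 3.58.1 in R 4.3.3 (lmFit and eBayes, no covariate), with two-sided p-values adjusted by Benjamini and Hochberg over all genes at 0.05. Single values also had an exact two-sided permutation test over 70 arrangements. Correlations with the macrophage mean used exact two-sided permutation over pairings. The number of litters sets the precision. The labels give separate litters per array. In a test on simulated data with independent genes, limma recovered 79.0% of 2-fold and 96.6% of 4-fold changes. These shares are over genes drawn from all those tested. They do not hold for genes as variable as RT1-Da (SE 0.52) or RT1-Bb (SE 0.44), nor for variation that genes share across arrays.

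The genes and lists were chosen with earlier results of these data known. Named were all 10 genes, up to 4 genes of a list by smallest p, and the 6 genes most like Cd74 and B2m. Single markers given beside these (Ins1, Gcg, Ms4a1, Ctss, Tap2, Psmb9, Ifng, Cd163, C1qb, Fcgr2b and Lgals3) were chosen after their values were seen. Alternatives were quantile normalization, cyclic loess, median centring, no dim genes, a trended robust prior, array weights, a replicate block, mean or all probe sets, the macrophage covariate and leaving out litters. Leaving out sham replicate 1 and IUGR replicate 4 together was added after the data were seen.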

Additional observations from a re-analysis of the deposited data

Results flagged for a closer look

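Within a group of 4 litters, 7 of 110 sets of values had 1 litter far from the other 3 by the 95% critical value of Dixon's test, where chance gives about 1 in 20. Sham replicate 1 was the high litter for Gbp2 (8.85, others 7.97 to 8.08), Cd79b (11.32, others 10.04 to 10.14), the dendritic cell list mean (7.88, others 7.61 to 7.65) and the T, natural killer and innate lymphoid cell list mean (7.82, others 7.42 to 7.47). Sham replicate 4 was the high litter for the B cell kinase gene Blk (7.37, others 6.82 to 6.87) and the endocrine list mean (11.87, others 10.30 to 10.45). IUGR replicate 4 was low in the endothelial list mean (10.14, others 10.72 to 10.77). None of the 10 MHC genes had such a litter.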

How the results depend on the processing

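Of the 10 MHC genes, 0 passed in 18 of 19 alternatives. With array weights 2 passed, RT1-Bb at -0.84 and Ciita at -0.20, as did 6358 genes (43.8%). Those weights put 84.0% of the sham weight on sham replicate 3 (7.82, against 0.196 to 1.03), so calls and signs there rest mostly on 1 sham litter. The median of the 10 was -0.08 with array weights, -0.14 with the macrophage covariate and -0.14 without sham replicate 1 and IUGR replicate 4, and leaving out 1 litter it ran from -0.59 to -0.23. RT1-Da turned to 0.28 with array weights, 0.11 with the covariate and 0.16 without both litters. RT1-Db1 turned to 0.05 and 0.03 with weights and covariate. Tap1 turned to -0.20, -0.15 and -0.21 with quantile normalization, cyclic loess and median centring, and ran from -0.07 to 0.13 leaving out 1 litter (-0.07 without sham replicate 2 or IUGR replicate 3). Fbxl7 turned to 0.04 with weights. The cause was not tested.

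The count over all genes, 36, was 0 after quantile normalization, cyclic loess, with all probe sets or with the covariate, 1 after median centring, 59 without dim genes, 1803 without both litters and 0 to 2738 leaving out 1 litter. In the 9 alternatives with 0, limma gave 2628 to 4378 genes at an unadjusted p under 0.05. Same-numbered litters did not deviate together (r from -0.43 to 0.10), so the numbers were not taken as pairs, and with the replicate block the count was 0 and no MHC gene passed.

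The median r of the 10 with the macrophage mean, 0.81, was 0.74 for deviations from group means, 0.71 without the 2 farthest litters, 0.48 without sham replicate 1 and IUGR replicate 4, and 0.65 to 0.86 leaving out 1 litter.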
